A study of Rattus norvegicus with 12 samples.

Results

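The genes described here are 42 rat genes that mark T cells, natural killer (NK) cells and the cytotoxic granule, taken by symbol from a table of read counts over 30045 gene symbols. A row was matched for 41 of the 42, with Fasl under its other symbol Faslg, and Il7r was not analysed here. All 41 had enough counts to be tested, among 15019 tested genes in all.

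RNA was sequenced from a piece of lung of each of 12 male Fischer rats (F344/DuCrl), an inbred strain, bought at 3 months of age and housed 3 per cage. The 6 control rats breathed air (group air, 0 mg/m3). The other 6 breathed crystalline nanocellulose (CNC), rod-shaped crystals of plant cellulose, at 20 mg/m3 in a whole-body chamber. Exposure ran 6 hours a day, 5 days a week, for 14 exposure days, with lung collection 1 day later. The question is which lung transcripts differ between the groups after repeated inhalation, and here how helper T cell, CD8 T cell and NK cell genes compare.

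T cells recognise antigen through a receptor that signals by way of the CD3 chains, the kinases Lck and Zap70 and the adaptor Lat. Helper T cells carry the coreceptor CD4 and cytotoxic T cells carry CD8, while NK cells kill without an antigen receptor by way of activating surface receptors. Cytotoxic T cells and NK cells share a granule, whose perforin opens the target membrane to serine proteases called granzymes. Lung holds both kinds of cell in its walls and in the blood of its dense capillary bed.

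Libraries held 8693259 to 16603697 counts in air and 9917387 to 14735245 in CNC. Levels are in CPM, the count scaled to its library's size with TMM factors, means are given with the SD over 6 rats, and a log2 fold change is CNC over air. Cd3e, the defining T cell chain, lay between 7.75 and 13.4 CPM in the 12 rats, and the NK receptor Ncr1 between 9.55 and 11.8 CPM, so both lineages were detected in every lung. Epithelial marker genes summed to 21142 to 25655 CPM in air and 22717 to 26320 CPM in CNC, with 1 of 8 higher and 3 lower by edgeR. Over all tested genes 13.2% were higher and 11.4% lower. Some other marker sums differed between the groups. Red cell genes summed to 2525 to 3258 CPM in air and 1717 to 2304 CPM in CNC, with 6 of 7 tested lower (Alas2, Hba-a1 and Hbb-b1 among them). Endothelial genes summed to 7176 to 8444 CPM and 6040 to 6782 CPM, with 12 of 12 lower (Calcrl, Cdh5 and Tek first). Neutrophil genes summed to 170 to 275 CPM in air and 438 to 698 CPM in CNC, with 5 of 10 higher (S100a9, Cd177 and Cxcr1 first) and 1 lower. Macrophage genes summed to 739 to 878 CPM and 807 to 1155 CPM, with 6 of 12 higher (Cd68, Itgax and Msr1 first), 1 lower and Marco at 0 counts in every library. Heart muscle genes, none of 8 called by edgeR, summed to 416 CPM in air replicate 4, 311 CPM in air replicate 5 and 11.9 to 129 CPM in the other 10 libraries.

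Few of the T cell and cytotoxic genes passed the test between the groups. Cst7 rose after CNC, and Tcf7, Prf1, Gzmk and Cd8a fell. A gene is said to have risen or fallen where the quasi-likelihood test of edgeR, adjusted by Benjamini-Hochberg over all 15019 genes, passed a threshold of 0.05. So 1 of the 41 rose, where 13.2% of all tested genes did, and 4 fell, where 11.4% did. In either direction 5 of 41 passed, against 24.6% of all tested genes. At an unadjusted p under 0.05 there were 7 (2 higher, 5 lower), against 35.7% of all genes. The log2 fold changes of the 41 had a median of -0.10, against -0.00 over all genes, and 30 of the 41 were negative, against 50.6% of all genes. They ran from -0.32 for Themis, which did not pass, to 0.43 for Cst7. None of the 41 passed with a change of 1.5-fold or more, against 3.61% of all genes. In none of the 41 were the ranges of the 2 groups apart, whereas they were apart in 11.5% of all genes. The median standard error of a log2 fold change was 0.11 for these genes and 0.07 over all genes. In bulk tissue, fewer cells of a type and less RNA per cell cannot be told apart, and neither can a change in another cell that uses the same gene.

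The number that fell depended on single rats. It was 2 without any one of air replicates 1 and 4 and CNC replicates 1, 2, 4 and 5, and 7 without CNC replicate 3, when Tbx21, Nkg7 and Gzmm also passed. The number that rose was 2 without air replicate 4 or air replicate 5, when Icos also passed. Tcf7, Prf1 and Cst7 passed in each of the 12 fits that left out 1 rat. Cd8a lost its call in 9 of the 12 (highest edgeR adjusted p = 0.0967), and Gzmk in 7 of the 12 (highest edgeR adjusted p = 0.0793).

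**Figure D1:**
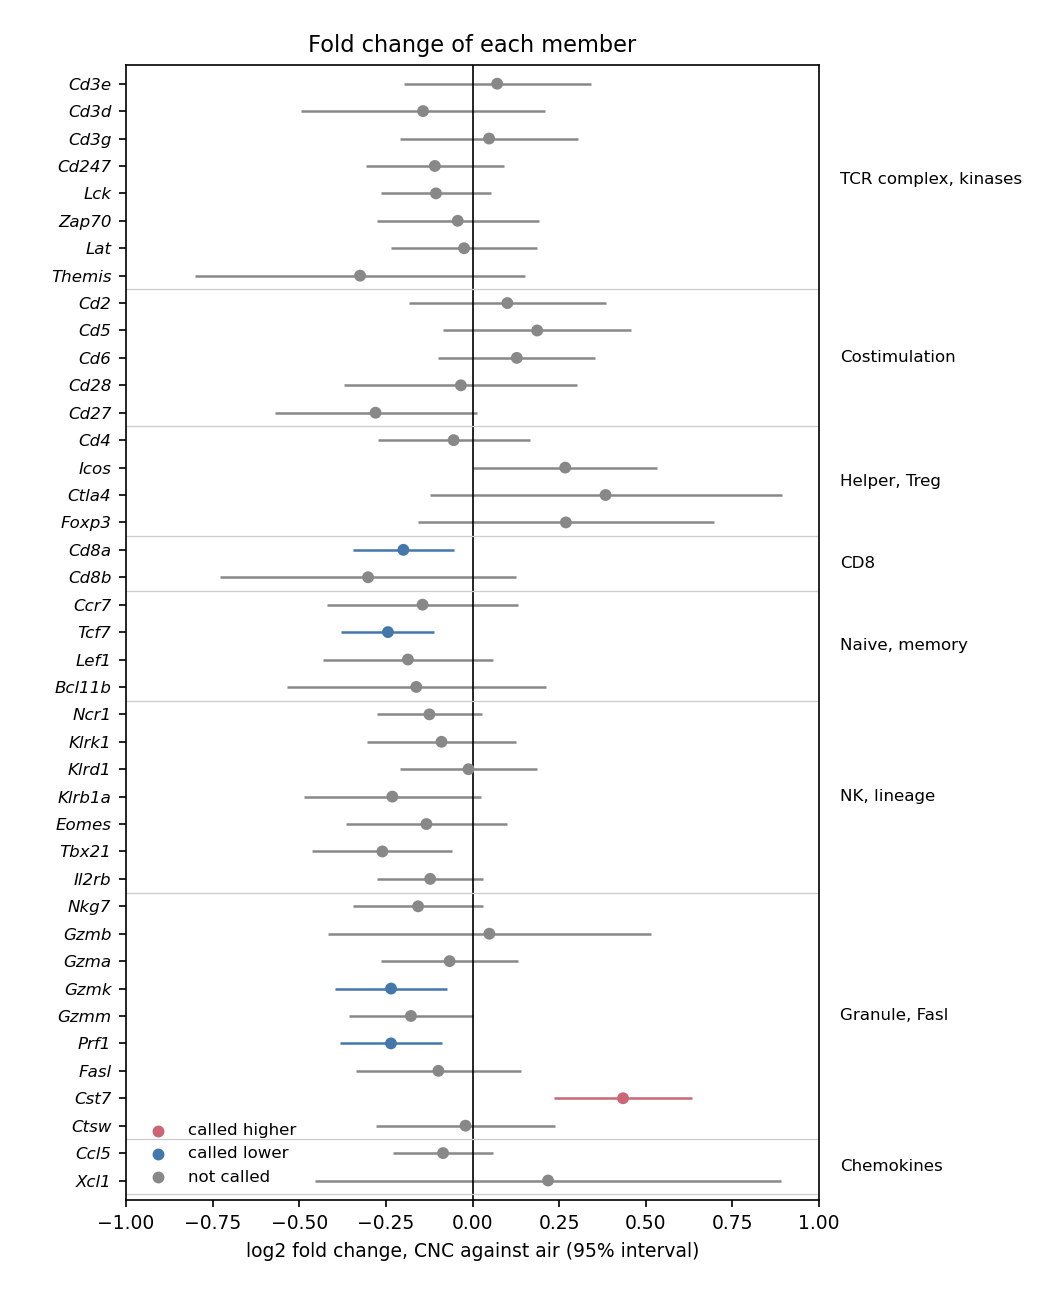
Log2 fold change of each of the 41 tested genes, CNC over air, on the x axis, with genes in rows grouped by role. Points are edgeR estimates from 6 rats a group, bars are 95% intervals, and colour marks the test result: Cst7 lies to the right at 0.43, and Cd8a, Tcf7, Gzmk and Prf1 lie to the left between -0.24 and -0.20.

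The 250 bases before the start of the 5 genes that passed are shown because 1 of these related genes rose and 4 fell. They are from RefSeq, build GRCr8, and read 5′ to 3′ on the strand of the gene. Capitals mark 4 short core motifs, searched on both strands: TGTGGT, bound by RUNX factors; AGGAAG, a common ETS core; GGTGTG, the core of T-box factors such as Tbx21 and Eomes; and CTTTGA, the core of TCF and LEF factors such as Tcf7 and Lef1. The RUNX and T-box letters can overlap. Cd8a (chr4:104923866-104924115, plus strand) holds none of the 4, and Tcf7 (chr10:36954280-36954529, minus strand) holds 1 ETS match. Gzmk (chr2:46582016-46582265, minus strand) holds 1 match each to RUNX, T-box and TCF and LEF. Prf1 (chr20:29788790-29789039, plus strand) holds 1 RUNX and 2 ETS matches, and Cst7 (chr3:159857030-159857279, plus strand) holds 1 of each.
Cd8a: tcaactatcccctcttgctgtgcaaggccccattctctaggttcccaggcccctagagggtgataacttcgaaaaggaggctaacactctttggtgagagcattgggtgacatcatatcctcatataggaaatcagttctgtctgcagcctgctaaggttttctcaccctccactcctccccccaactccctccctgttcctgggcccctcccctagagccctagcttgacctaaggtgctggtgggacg
Tcf7: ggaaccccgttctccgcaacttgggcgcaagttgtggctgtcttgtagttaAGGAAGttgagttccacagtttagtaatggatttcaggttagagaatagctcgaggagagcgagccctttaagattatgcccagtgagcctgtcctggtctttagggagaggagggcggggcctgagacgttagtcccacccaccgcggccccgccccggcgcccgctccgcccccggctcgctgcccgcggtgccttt
Gzmk: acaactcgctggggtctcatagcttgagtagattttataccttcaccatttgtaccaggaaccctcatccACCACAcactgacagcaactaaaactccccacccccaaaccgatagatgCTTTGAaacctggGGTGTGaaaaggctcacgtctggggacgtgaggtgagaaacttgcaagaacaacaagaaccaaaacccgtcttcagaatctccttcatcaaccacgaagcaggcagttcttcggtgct
Prf1: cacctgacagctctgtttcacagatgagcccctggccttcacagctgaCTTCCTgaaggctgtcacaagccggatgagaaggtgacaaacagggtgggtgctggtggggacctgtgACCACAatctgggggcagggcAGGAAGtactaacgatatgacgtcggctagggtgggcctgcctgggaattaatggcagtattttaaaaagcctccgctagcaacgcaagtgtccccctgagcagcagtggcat
Cst7: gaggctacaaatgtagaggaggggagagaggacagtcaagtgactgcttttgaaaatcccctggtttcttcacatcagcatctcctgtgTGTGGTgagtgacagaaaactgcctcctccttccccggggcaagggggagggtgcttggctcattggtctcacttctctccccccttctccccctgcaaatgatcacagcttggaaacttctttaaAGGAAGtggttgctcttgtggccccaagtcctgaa

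So Prf1, which fell, and Cst7, which rose, hold the same kinds of match. Of the 42 genes 32 had a promoter in the RefSeq table, and those of Cd6, Cd4, Cd8b, Ccr7, Bcl11b, Ncr1, Klrd1, Il2rb, Ctsw and Ccl5 were not used here. The RUNX letters occurred in 15 of the 32 (46.9%), against 14.1% of all 27457 promoters. Of the granule genes 7 of 8 held them (Nkg7, Gzmb, Gzma, Gzmk, Gzmm, Prf1 and Cst7, but not Fasl). The ETS letters occurred in 18 of the 32 (56.2%), against 29.4% of all promoters, and in 7 of 8 genes of the receptor complex (Themis had none). The T-box letters occurred in 7 (21.9%, against 15.3%) and the TCF and LEF letters in 8 (25%, against 13.8%). These matches describe the letters and are not evidence of binding.

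Among transcripts of the T cell receptor complex none of 8 passed by edgeR, none had an unadjusted p under 0.05, and none passed by DESeq2 or limma-voom. Their median log2 fold change was -0.07. Cd3e was 7.75, 10.1 and 13.4 CPM (lowest, median, highest) in air and 8.38, 10.7 and 12.4 CPM in CNC. All CNC rats lay inside the air range, and the log2 fold change was 0.07 (95% interval -0.20 to 0.34). The interval excludes a log2 change of the size of that of Cst7.

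The other CD3 chains also had ranges that overlapped. Cd3g went from 8.50 ± 1.74 to 8.84 ± 0.791 CPM and Cd3d from 4.88 ± 1.26 to 4.44 ± 0.701 CPM. Cd247, the zeta chain that carries most of the signalling motifs, averaged 13.1 ± 1.85 CPM in air and 12.2 ± 1.06 CPM in CNC. Among the proximal kinases, Lck was 34.8 ± 4.60 and 32.5 ± 2.04 CPM, a log2 fold change of -0.11 (95% interval -0.27 to 0.05). All 6 CNC rats were below the air median for both Cd247 and Lck, within the air range. Zap70, which docks on the phosphorylated chains, was 13.4 ± 2.12 and 13.0 ± 1.81 CPM. The adaptor Lat was 13.2 ± 2.18 and 13.0 ± 0.952 CPM. Themis, which tunes receptor signalling during thymic selection, was low, at 1.41 ± 0.490 and 1.16 ± 0.146 CPM, so that its interval was wide (-0.80 to 0.15).

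None of the 5 adhesion and costimulation genes passed by edgeR, DESeq2 or limma-voom, and none had an unadjusted p under 0.05. Cd5, a brake on receptor signalling, was 6.15, 7.24 and 11.0 CPM in air and 8.24, 9.08 and 9.86 CPM in CNC. All 6 CNC rats were above the air median, but air replicates 4 and 5 were at 11.0 and 9.41 CPM, so the ranges overlapped (log2 fold change 0.19 ± 0.13 SE). Cd2, an adhesion receptor of T and NK cells, also had all 6 CNC rats above the air median. It averaged 8.11 ± 1.76 CPM in air and 8.73 ± 1.253 CPM in CNC, with CNC replicate 6 highest at 11.1 CPM. Cd6, a relative of Cd5, was 8.86 ± 1.38 and 9.72 ± 1.01 CPM. Cd28, the main costimulatory receptor of naive T cells, was 6.77 ± 1.57 and 6.58 ± 1.17 CPM. Cd27, a costimulator of naive and memory T cells, had the reverse pattern to Cd5: all 6 CNC rats were below the air median, at 10.2 ± 1.89 CPM in air and 8.40 ± 1.48 CPM in CNC. Its log2 fold change of -0.28 ± 0.14 SE did not pass (edgeR adjusted p = 0.157).

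Of the 4 helper and regulatory T cell genes 3 had positive estimates. None passed by edgeR, DESeq2 or limma-voom, and 1 (Icos) had an unadjusted p under 0.05. Cd4, which rat macrophages are also known to carry, was 60.8, 82.5 and 93.3 CPM in air and 66.1, 81.1 and 84.9 CPM in CNC. All CNC rats lay inside the air range (log2 fold change -0.05, 95% interval -0.27 to 0.16). Icos, the costimulatory receptor of activated and follicular helper T cells, was 6.17, 6.57 and 9.69 CPM in air and 7.65, 9.20 and 9.48 CPM in CNC. All 6 CNC rats exceeded the air median and 4 air rats lay below every CNC rat, but air replicates 4 and 5 lay at 9.55 and 9.69 CPM. The log2 fold change was 0.27 ± 0.12 SE (edgeR adjusted p = 0.137). Without air replicate 4 it passed (edgeR adjusted p = 0.0417), as it did without air replicate 5 (edgeR adjusted p = 0.0420).

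Foxp3, the lineage factor of regulatory T cells, rested on 126 counts over 6 air libraries and 151 over 6 CNC libraries. It was 0.928, 1.71 and 1.999 CPM in air and 1.51, 1.96 and 2.79 CPM in CNC, and 2 CNC rats, replicates 5 and 6, lay above every air rat. Ctla4, the inhibitory partner of Cd28, rested on 51 and 68 counts, and 4 of 6 CNC rats exceeded every air rat. It was 0.480, 0.723 and 0.864 CPM in air and 0.473, 0.965 and 1.11 CPM in CNC. The 95% intervals of the log2 fold changes were -0.16 to 0.70 for Foxp3 and -0.12 to 0.89 for Ctla4. Both hold no change and also a change larger than that of Cst7, so whether these genes differed was left undetermined.

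Of the CD8 chains, Cd8a fell after CNC. Cd8a, the chain that both conventional CD8 T cells and some rat NK cells carry, was 29.1, 31.6 and 37.6 CPM in air and 24.7, 28.2 and 31.8 CPM in CNC. Of the 6 CNC rats 5 lay below the lowest air rat, and CNC replicate 3 lay just above the air median. It fell from 32.3 ± 3.02 to 28.1 ± 2.36 CPM, or 1.15-fold (log2 fold change -0.20 ± 0.07 SE, edgeR adjusted p = 0.0432). Cd8b, the chain restricted to conventional CD8 T cells, had a similar estimate on 176 and 145 counts, without passing. It was 1.499, 2.13 and 3.21 CPM in air and 1.38, 1.90 and 2.31 CPM in CNC (log2 fold change -0.30, 95% interval -0.73 to 0.13). The Cd8a call was kept without air replicate 2, air replicate 6 or CNC replicate 3 and lost when any other single rat was left out. It was also lost with no count filter (edgeR adjusted p = 0.0625) and with genes kept at a mean of at least 1 CPM (edgeR adjusted p = 0.0513).

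**Figure D2:**
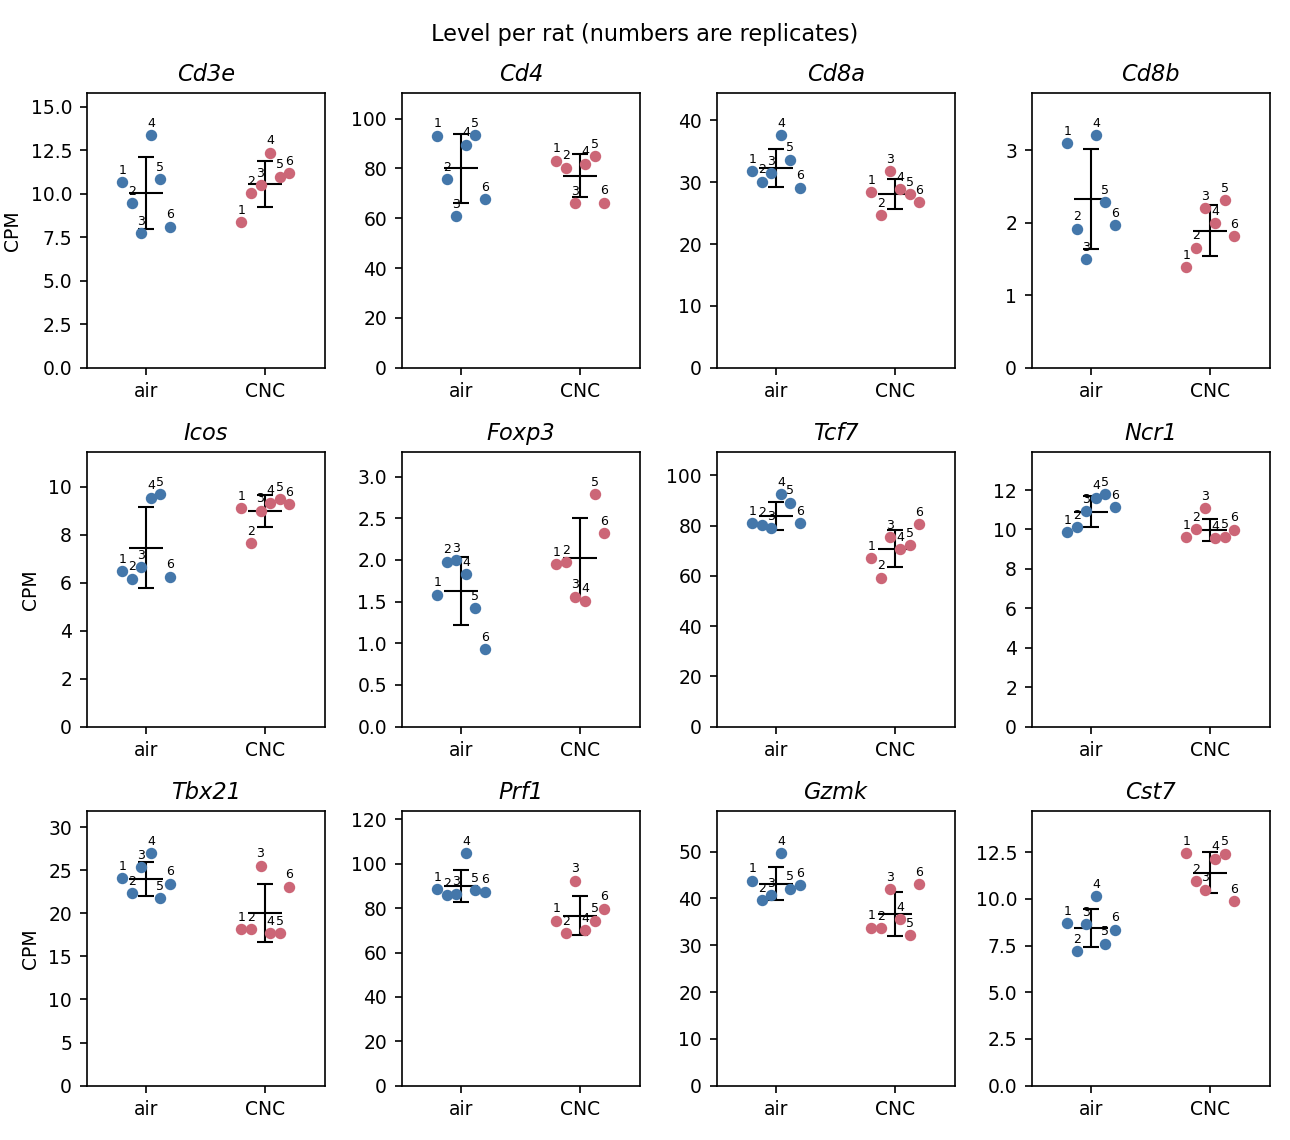
Level in CPM (y axes, starting at 0) of 12 genes in each rat, with the groups on the x axes, replicate numbers beside the points and bars for the mean and SD (6 rats a group). Air replicate 4 is the highest air rat for Cd8a, Tcf7, Prf1, Gzmk and Cst7, CNC replicate 3 is the highest CNC rat for Cd8a, Tbx21 and Prf1, and 5 of 6 CNC rats lie above every air rat for Cst7.

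Genes of naive and memory T cells gave 1 fall and 3 negative estimates, where 11.4% of all tested genes fell. Tcf7, a transcription factor that keeps T cells in a naive or self-renewing memory state and is also used by early NK cells and innate lymphoid cells, was 79.1, 81.1 and 92.4 CPM in air. In CNC it was 59.3, 71.4 and 80.6 CPM, with 5 of 6 rats below the lowest air rat and replicate 6 below the air median. It fell from 83.8 ± 5.501 to 70.8 ± 7.30 CPM, or 1.18-fold (log2 fold change -0.24 ± 0.06 SE, edgeR adjusted p = 0.0101). Lef1, its close relative, averaged 14.8 ± 2.36 CPM in air and 13.1 ± 2.08 CPM in CNC (log2 fold change -0.19 ± 0.12 SE). Ccr7, the receptor that brings naive and central memory T cells to lymph nodes, was 10.6 ± 2.25 and 9.67 ± 1.18 CPM. For both Lef1 and Ccr7 5 of 6 CNC rats were below the air median, and the ranges overlapped. Bcl11b, which fixes T cell identity, was 8.87 ± 2.66 and 7.96 ± 1.60 CPM, with air replicates 4 and 5 at 11.6 and 12.7 CPM and the other 4 air rats at 6.61 to 8.43 CPM.

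All 7 NK receptor and cytotoxic lineage genes had negative estimates, with a median of -0.12, and none passed by edgeR. One, Tbx21, had an unadjusted p under 0.05 and passed by DESeq2 and limma-voom. Ncr1, the activating receptor NKp46 and the most NK-restricted gene of the group, was 9.87, 11.0 and 11.8 CPM in air and 9.55, 9.81 and 11.1 CPM in CNC. Of 6 CNC rats 3 lay below every air rat, and CNC replicate 3 was the highest of its group. Its log2 fold change of -0.12 ± 0.07 SE (95% interval -0.28 to 0.03) did not pass (edgeR adjusted p = 0.255).

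Tbx21 encodes T-bet, the factor of type 1 helper, CD8 effector and NK programmes. It was 21.8, 23.7 and 27.0 CPM in air and 17.7, 18.1 and 25.5 CPM in CNC. In CNC 4 rats lay between 17.7 and 18.1 CPM, below every air rat, while replicates 3 and 6 lay at 25.5 and 23.1 CPM within the air range. The log2 fold change was -0.26 ± 0.10 SE (edgeR adjusted p = 0.0583). It passed without CNC replicate 3 (edgeR adjusted p = 0.00595) and without CNC replicate 6 (edgeR adjusted p = 0.0377). Eomes, its partner factor in NK and memory CD8 cells, was 7.78 ± 1.26 and 7.09 ± 0.630 CPM, with all 6 CNC rats below the air median and inside the air range.

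The remaining NK genes were lectin-like receptors and a cytokine receptor chain. Klrk1 (NKG2D), an activating receptor, averaged 21.8 ± 3.72 CPM in air and 20.6 ± 2.12 CPM in CNC. Klrd1 (CD94), which pairs with NKG2 chains, had the estimate nearest 0 of the 41, at 17.6 ± 2.20 and 17.4 ± 2.09 CPM (log2 fold change -0.01, 95% interval -0.21 to 0.19). Klrb1a, of the NKR-P1 family that defines rat NK cells, was 15.9 ± 2.37 and 13.5 ± 2.39 CPM (log2 fold change -0.23 ± 0.12 SE, edgeR adjusted p = 0.183). Klrb1a belongs to a family of near-identical genes, and reads could be split between them. Il2rb, the shared receptor chain for interleukin 2 and interleukin 15, was 58.3 ± 5.24 and 53.7 ± 5.77 CPM.

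The cytotoxic granule split into genes that fell, genes that did not pass and 1 that rose. Of 9 genes 2 fell and 1 rose, where 11.4% of all tested genes fell and 13.2% rose. Prf1, which encodes perforin, was 85.8, 87.7 and 105 CPM in air and 68.6, 74.4 and 92.4 CPM in CNC. Of the CNC rats 5 lay below the lowest air rat, and CNC replicate 3 lay above 5 of the 6 air rats. Prf1 fell from 90.2 ± 7.20 to 76.6 ± 8.70 CPM, or 1.18-fold (log2 fold change -0.24 ± 0.07 SE, edgeR adjusted p = 0.0204). Gzmk, a granzyme of memory CD8 T cells, was 39.7, 42.5 and 49.6 CPM in air and 32.2, 34.7 and 43.1 CPM in CNC. Here 4 CNC rats lay below every air rat and replicates 3 and 6 lay within the air range. Gzmk fell from 43.1 ± 3.51 to 36.7 ± 4.64 CPM, or 1.18-fold (log2 fold change -0.24 ± 0.08 SE, edgeR adjusted p = 0.0338). Its call was kept without air replicate 2, 3 or 5 or CNC replicate 3 or 6 and lost when any other single rat was left out.

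Red cell marker sums, which were lower in all 6 CNC rats than in any air rat, and endothelial and lymphatic endothelial marker sums, which were lower likewise, moved with the falls of Cd8a, Tcf7, Prf1 and Gzmk. Their part in these falls was not tested.

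Cst7 moved the other way. It encodes cystatin F, an inhibitor that restrains the cathepsins which activate granzymes, and it is also known from activated myeloid cells. It was 7.19, 8.51 and 10.2 CPM in air and 9.89, 11.6 and 12.4 CPM in CNC. Of 6 CNC rats 5 lay above every air rat, and CNC replicate 6 lay just below the highest, air replicate 4. Cst7 rose from 8.45 ± 1.03 to 11.4 ± 1.09 CPM, or 1.35-fold (log2 fold change 0.43 ± 0.09 SE, 95% interval 0.23 to 0.63, edgeR adjusted p = 0.00309). Neutrophil marker sums (170 to 275 CPM in air, 438 to 698 CPM in CNC) and macrophage marker sums (739 to 878 CPM, 807 to 1155 CPM) were higher in CNC as well, and their part in the rise of Cst7 was not tested.

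The other granule genes did not pass. Gzma, a granzyme of NK and CD8 T cells, was 27.5, 33.6 and 39.0 CPM in air and 26.0, 31.7 and 37.4 CPM in CNC (log2 fold change -0.07, 95% interval -0.26 to 0.13). Gzmb, the granzyme of activated killers, varied most of the granzymes: it was 4.29, 7.31 and 9.09 CPM in air and 4.58, 6.34 and 11.0 CPM in CNC, with CNC replicate 4 highest. Its 95% interval ran from -0.42 to 0.51. Gzmm, a granzyme of NK and innate-like T cells, was 23.2 ± 2.005 and 20.6 ± 2.67 CPM (log2 fold change -0.18 ± 0.08 SE, edgeR adjusted p = 0.142). Nkg7, a granule membrane protein, was 26.6 ± 2.51 and 23.8 ± 3.34 CPM (log2 fold change -0.16 ± 0.09 SE, edgeR adjusted p = 0.220). For both, 5 of 6 CNC rats were below the air median and CNC replicate 3 was above it. Fasl, the death ligand, was 6.51 ± 0.650 and 6.09 ± 0.921 CPM. Ctsw, a cathepsin of cytotoxic cells, was 6.26 ± 1.16 and 6.20 ± 0.612 CPM.

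Neither lymphocyte chemokine passed by edgeR, DESeq2 or limma-voom, and neither had an unadjusted p under 0.05. Ccl5, released by memory CD8 T cells and NK cells, was 61.8, 66.9 and 77.4 CPM in air and 57.6, 63.9 and 77.3 CPM in CNC (log2 fold change -0.08 ± 0.07 SE). Xcl1, which attracts cross-presenting dendritic cells, rested on 61 and 72 counts, at 0.792 ± 0.297 and 0.933 ± 0.352 CPM.

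Ratios of counts within a library compare subsets without library scaling, and only the difference between groups is read from them, since counts are not per length. In all, 12 such log2 ratios were compared by an exact permutation test (2-sided, every split of the rats into 6 and 6), adjusted over the 12 ratios. The smallest p it can give is 0.00216. For Cst7 over Nkg7, an inhibitor and a membrane protein of the same granule, the air rats lay between -1.69 and -1.58 and the CNC rats between -1.49 and -0.81. The ranges did not overlap, and the mean difference was 0.60 ± 0.12 SE (exact permutation p = 0.00216, adjusted p = 0.0260). The other 11 ratios did not pass. The ratio shares its Cst7 counts with the single-gene result and is not independent of it. Its call was lost when air replicate 1, 2, 4, 5 or 6 was left out (exact permutation adjusted p = 0.0519 each), with the difference at 0.59 to 0.61. The groups still did not overlap in these fits. With 5 air rats against 6 CNC rats the exact p depends on the group sizes, so the lost call does not show that the ratio rests on those rats. CNC replicate 3, at -1.49, and CNC replicate 6, at -1.32, lay nearest to the air rats.

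CD8 genes were lower relative to Cd3e, without passing over the 12 ratios. The size of ratios over Cd3e depends on that choice of chain. Cd3e and Cd3g had positive log2 fold changes (0.07 and 0.05), and Cd3d and Cd247 negative ones (-0.14 and -0.11). Ratios over the other chains were not made. For Cd8b over Cd3e all 6 CNC rats were below the air median, with a difference of -0.35 ± 0.11 SE (exact permutation p = 0.0173, adjusted p = 0.104). For Cd8a over Cd3e 5 of 6 were below it, with a difference of -0.29 ± 0.12 SE (exact permutation p = 0.0346, adjusted p = 0.104). Cd4 over Cd3e differed by -0.13 ± 0.13 SE (exact permutation adjusted p = 0.352), and Cd8b over Cd4 by -0.22 ± 0.17 SE (exact permutation adjusted p = 0.309). Because rat macrophages also carry Cd4, ratios with Cd4, Foxp3 over Cd4 among them, do not read helper T cells alone. For the granule, Gzma over Prf1 had all 6 CNC rats above the air median, with a difference of 0.17 ± 0.07 SE (exact permutation p = 0.0260, adjusted p = 0.104). Without air replicate 3 this ratio passed, at 0.21 (exact permutation adjusted p = 0.0390). Gzmb over Prf1 differed by 0.27 ± 0.24 SE (exact permutation adjusted p = 0.352).

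The regulatory and NK ratios were wider. Foxp3 over Cd4 differed by 0.35 ± 0.24 SE, Ctla4 over Cd28 by 0.37 ± 0.22 SE and Icos over Cd28 by 0.31 ± 0.16 SE (exact permutation adjusted p = 0.244, 0.244 and 0.187). Ncr1 over Cd3e differed by -0.22 ± 0.14 SE and Klrd1 over Cd3e by -0.10 ± 0.12 SE (exact permutation adjusted p = 0.244 and 0.411). Neither NK ratio differed beyond the spread between rats.

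**Figure D3:**
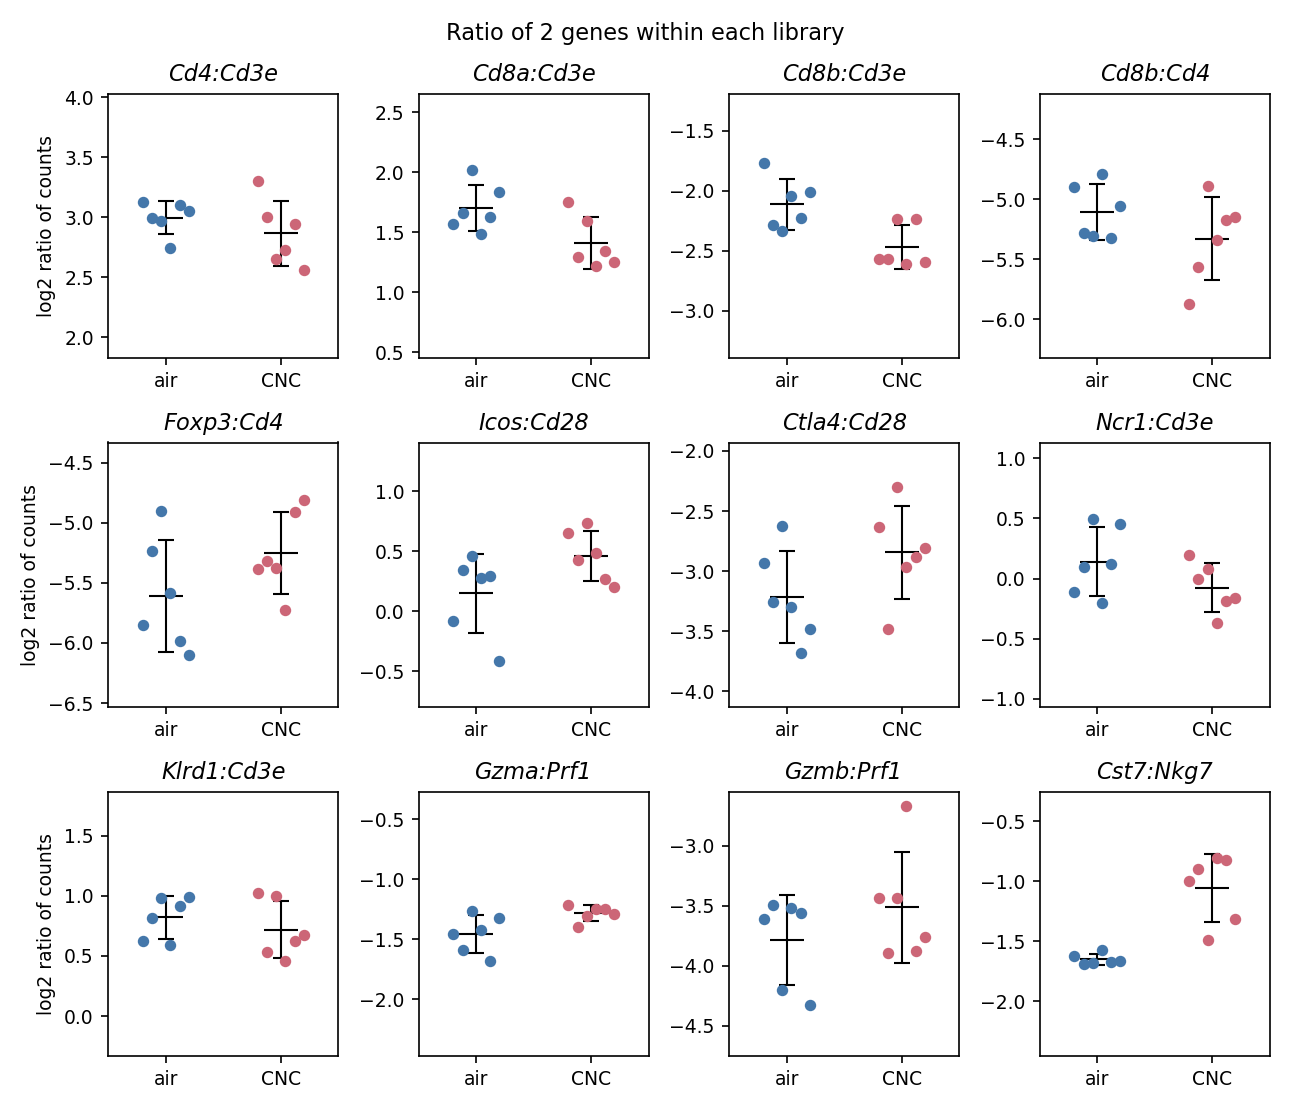
Log2 ratio of the counts of 2 genes within each library (y axes, each panel with its own range), by group on the x axes, 1 point a rat, with bars for the mean and SD of 6 rats. The groups are apart in Cst7 over Nkg7 (air -1.69 to -1.58, CNC -1.49 to -0.81) and overlap in the other 11 panels.

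Single rats were high or low for many of the genes at once. Air replicate 4 was the highest air rat for 29 of the 41 genes, and it lay a median of 0.25 (log2 of CPM plus 0.1) above the air mean. Air replicate 6, the smallest library, was the lowest air rat for 18 genes, with a median deviation of -0.22. Among CNC rats, replicate 3 was highest for 15 genes and replicate 6 for 13, while replicate 2 was lowest for 17.

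T cell and cytotoxic genes stood at different levels in some rats of both groups. The median deviation of CNC replicate 6 was 0.18 over 13 receptor and costimulation genes and -0.03 over 16 NK and granule genes. CNC replicate 4 was likewise at 0.04 and -0.17. CNC replicate 2 was at -0.10 and -0.33, the lowest of the 12 rats for the NK and granule genes, and CNC replicate 3 was at 0.00 and 0.09. Air replicate 6 was at -0.28 and -0.04, air replicate 4 at 0.36 and 0.21 and air replicate 5 at 0.16 and 0.01. Air replicates 1, 2 and 3 were at 0.07 and 0.03, -0.12 and -0.11, and -0.09 and 0.02. Whether these differences between rats lie in the animals or in the piece of lung taken was not tested.

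**Figure D4:**
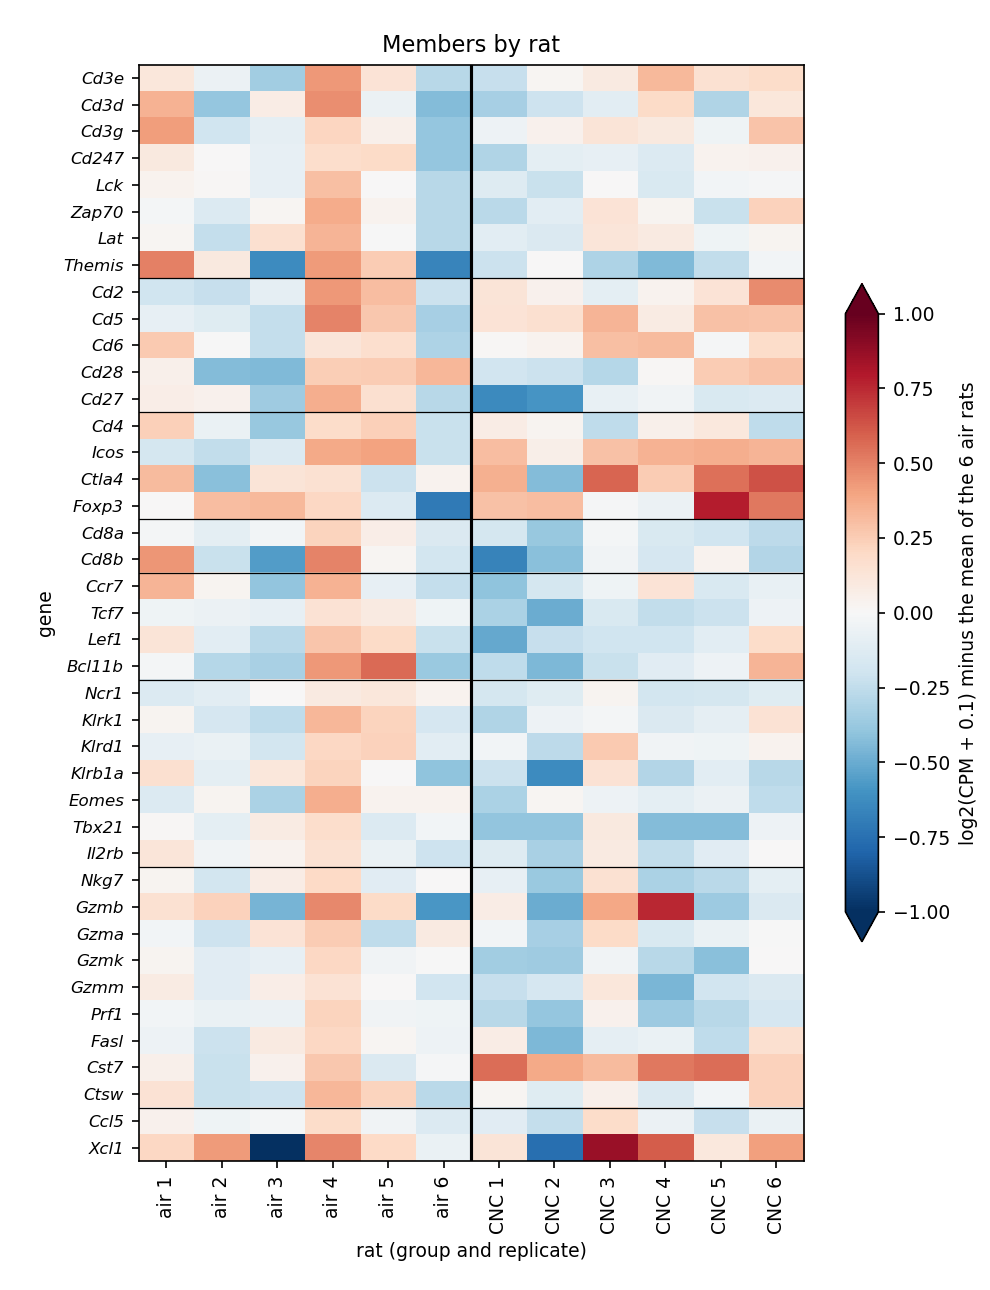
Deviation of each gene in each rat from the mean of the 6 air rats, in log2 of CPM plus 0.1, with genes in rows grouped by role (black lines) and rats in columns (air left, CNC right). Colours run from -1 to 1, and values beyond are drawn at the end of the scale. Air replicate 4 is red for nearly every gene, and Cst7 is red in all 6 CNC rats.

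The 2 air lungs with the highest heart muscle sums, air replicates 4 (416 CPM) and 5 (311 CPM), were also high for many T cell genes. With both left out, a comparison chosen after seeing the data, 3 of the 41 rose and none fell by edgeR. Of all 15197 genes tested in that fit 3592 passed, 1844 higher and 1748 lower. Of the 41, 8 then had an unadjusted p under 0.05, a count not made over all genes for this fit. Icos rose (log2 fold change 0.48, edgeR adjusted p = 0.00160), as did Cd5 (0.40, edgeR adjusted p = 0.00741) and Cst7 (0.47, edgeR adjusted p = 0.00294). The falls kept their sign and did not pass: Tcf7 was at -0.19 (edgeR adjusted p = 0.0517), Prf1 at -0.19 (edgeR adjusted p = 0.0658), Gzmk at -0.19 (edgeR adjusted p = 0.104) and Cd8a at -0.13 (edgeR adjusted p = 0.179). The median log2 fold change of the 41 moved from -0.10 to -0.03. The part of heart tissue in these values was not tested.

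**Figure D5:**
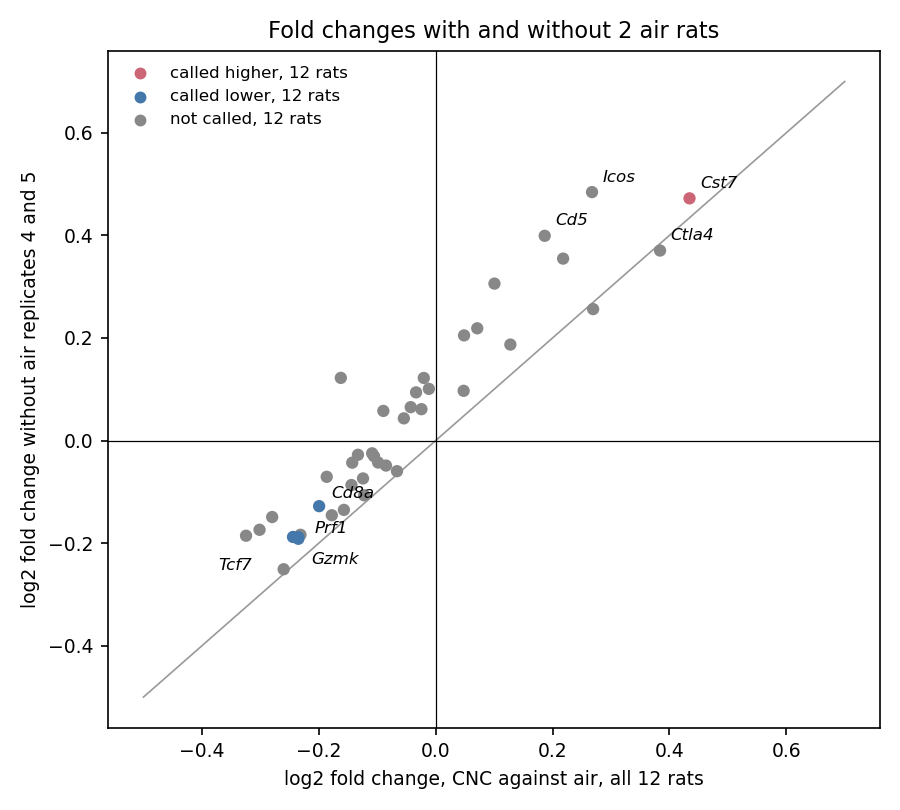
Log2 fold change of each gene, CNC over air, with all 12 rats (x axis) and without air replicates 4 and 5 (y axis), with the line of equality and colour for the test result in 12 rats. Most points lie above the line, Icos and Cd5 among them, and the 4 genes that fell lie closer to 0 on the y axis, between -0.19 and -0.13.

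Circadian clock genes differed between the groups, with 7 of 14 higher and 5 lower (Bhlhe41, Npas2 and Arntl first). Of all tested genes 13.2% were higher and 11.4% lower. The time of day at which lungs were taken is not given in the sources used here. The first principal component of the 14 genes, which held 78.9% of their variance, ran from -1.24 to 5.14 in air and from -4.38 to -1.20 in CNC (2-sided exact permutation p = 0.00433). The groups overlapped in it only through air replicate 4. With this component as a covariate, none of the 41 rose and 9 fell by edgeR (Bcl11b, Cd27, Cd3d, Cd8a, Gzmk, Klrk1, Lef1, Tcf7 and Zap70). Of all 15019 genes tested in that fit 554 rose and 328 fell, 882 in all. Of the 41, 21 had an unadjusted p under 0.05, a count not made over all genes for this fit. Then 38 of the 41 estimates were negative, with a median of -0.43, and neither Cst7 (log2 fold change 0.22, edgeR adjusted p = 0.508) nor Prf1 (-0.41, a larger fold than without the covariate, edgeR adjusted p = 0.0586) passed. Clock gene level and exposure overlap in 1 rat alone and cannot be told apart in the others. That rat, air replicate 4, was also the highest air rat for 29 of the 41 genes. Its part in the estimates with the covariate was not tested.

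Other genes of the same pathways moved in both directions. Of 28 other T cell receptor signalling genes 7 rose and 1 fell, where 13.2% of all tested genes rose and 11.4% fell. Vav1, an exchange factor downstream of antigen receptors, rose from 32.4 ± 2.53 to 43.6 ± 4.31 CPM. The adaptors Lcp2 (log2 fold change 0.27) and Sla (0.36) and the receptor Slamf6 (0.56) rose as well, while the adaptor Skap1 fell (-0.37). Vav1, Lcp2 and Sla are known from myeloid cells too, and macrophage and neutrophil marker sums were higher in CNC, so which cells carried these rises was not tested.

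Of 26 other T cell subset and state genes 5 rose and 3 fell, against 13.2% and 11.4% of all tested genes. Tnfrsf9 (4-1BB), an activation-induced costimulator, rose from 0.694 ± 0.317 to 2.26 ± 0.424 CPM with no overlap between the groups. Havcr2 (TIM-3), an inhibitory receptor of exhausted T cells and of myeloid cells, rose from 1.94 ± 0.453 to 4.27 ± 1.30 CPM. The residency integrin Itgae (log2 fold change 0.53) and the early activation antigen Cd69 (0.45) rose, and the factors Satb1 (-0.22), Gata3 (-0.33) and Zbtb16 (-1.26) fell. Zbtb16, the factor of innate-like T cells, varied widely in air, at 23.7 ± 19.5 CPM against 9.86 ± 3.20 CPM in CNC. Itgae is also among the dendritic cell markers used here, and Gata3 among those of innate lymphoid cells. Which cells carried these rises and falls was not tested.

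Effector cytokines of helper T cells were at the edge of detection. Over all 12 libraries Ifng had 15 counts, Il17a 1, Il4 3, Il13 5, Il21 8 and Il2 5. Il5 and the checkpoint receptor Pdcd1 had 0 counts. If their reads were counted on these rows, that allows up to 0.0199 CPM (3 counts of the 12 libraries' total). Whether they were was not tested, and the macrophage gene Marco also had 0 counts in every library. Type 1, type 2 and type 17 helper output could therefore not be compared from cytokine genes.

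Of 27 other NK and cytotoxic genes 2 rose and 2 fell, against 13.2% and 11.4% of all tested genes. Tyrobp, the signalling adaptor of NK and myeloid receptors, rose from 88.7 ± 5.72 to 120 ± 9.93 CPM, and Ccl4, a chemokine of killer cells and macrophages, from 7.22 ± 0.713 to 10.9 ± 0.518 CPM, both with no overlap. Tnfsf10, the death ligand TRAIL, fell (log2 fold change -0.19), and so did the rodent NK receptor Klre1, from 6.89 ± 0.609 to 5.73 ± 0.209 CPM with no overlap between the groups.

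Of 19 ligands and growth factors of lymphocytes 7 rose and 3 fell, against 13.2% and 11.4% of all tested genes. Cd274 (PD-L1), the ligand of the checkpoint receptor PD-1, rose from 45.6 ± 2.46 to 63.2 ± 4.50 CPM. Ccl22 and Ccl17, which attract Ccr4-bearing T cells, rose from 0.588 ± 0.371 to 2.83 ± 0.695 CPM and from 0.457 ± 0.174 to 1.64 ± 0.404 CPM. Il18, a cytokine that primes NK and type 1 T cells, rose (log2 fold change 0.53). Il15, the survival factor of NK and memory CD8 T cells, fell from 20.4 ± 2.12 to 17.3 ± 1.44 CPM (log2 fold change -0.25), Cd48, the ligand of an NK receptor, fell (-0.09), and Ccl21, the Ccr7 ligand, fell (-0.19). Ccr4 itself had 35 counts over the air libraries and 77 over the CNC libraries and was too low to be tested.

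Marker genes of neighbouring cells moved in both directions, as did all tested genes, of which 13.2% were higher and 11.4% lower. B cell genes had 1 of 12 higher (Fcrla) and 1 lower (Bank1), with sums of 159 to 204 CPM in air and 147 to 172 CPM in CNC. Plasma cell genes had 4 of 7 higher (Txndc5, Irf4 and Derl3 first) and 1 lower, with sums of 427 to 472 CPM in air and 479 to 494 CPM in CNC. Dendritic cell genes had 6 of 12 higher (Ccl22, Lamp3 and Clec9a first) and 1 lower, with sums of 637 to 788 CPM and 875 to 1124 CPM. Platelet genes had 1 of 4 higher (Pf4), with sums of 25.4 to 37.9 CPM and 42.1 to 61.0 CPM. Lymphatic endothelial genes had 6 of 7 lower (Lyve1, Prox1 and Flt4 first), with sums of 1134 to 1339 CPM and 1005 to 1102 CPM. Mast cell and basophil genes had 1 of 3 higher (Hdc) and 1 lower (Kit), and innate lymphoid cell genes had 2 of 8 higher and 3 lower (Arg1, Ahr and Kit first). Cell cycle genes had 3 of 12 higher (Cdk1, Mki67 and Rrm2) and none lower. The part of these cells in the values of the 41 genes was not tested.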

How the data were processed

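RNA was isolated from lung pieces of 12 rats, and stranded mRNA libraries were made with 12 cycles of PCR, per the labels' protocols. The submitters' processing notes name HISAT2 2.1.0, HTSeq 0.11.2, SAMtools 1.8, Trimmomatic 0.35, bcl2fastq 2.19 and Cufflinks, with no annotation or strand setting stated. The authors deposited raw whole-number counts per gene symbol, without normalization.

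The test used edgeR 4.0.16 under R 4.3.3, with filterByExpr (minimum count 10, minimum total 15), TMM scaling, glmQLFit and glmQLFTest, CNC against air, Benjamini-Hochberg adjustment, threshold 0.05. A standard error is the log2 fold change over the square root of F. The common biological coefficient of variation was 8.05%. Ratios add 0.5 to each count and take the difference of group means. DESeq2 1.42.0, limma-voom (limma 3.58.1), other scalings and filters, a clock covariate and leaving out rats were alternatives. On simulated data of 14950 genes, 70, 78, 96 and 98% of genes changed 1.25-, 1.5-, 2- and 4-fold were recovered for CNC against air (50 genes each), with 9 of 180 calls false. The changed genes were drawn from all genes above a minimum mean count. Only 50 genes per fold of the 14950 were changed, whereas 24.6% of all tested genes passed in the data. The adjustment over all genes therefore worked under unlike conditions, and the shares need not carry over to the data. The 41 genes also had a larger median standard error (0.11 against 0.07), so these shares need not hold for them.

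Groups come from the labelled treatment and replicate numbers only name a rat. Over the 30 pairs of libraries within a group, chi-square per degree of freedom was 2.69 to 8.36, so none looked like a repeat. P-values measure the spread between rats; cage mates were not analysed. Amplified reads are not independent molecules. Antisense, overlapping and near-identical genes are uncertain. The 42 genes, the other lists, the 12 ratios and the motifs were chosen with earlier results of these data known. All 42 genes are named, with up to 4 called genes per direction from each related list and up to 3 from marker lists. Plots were made in matplotlib 3.10.9 (Python 3.11.15).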

Additional observations from a re-analysis of the deposited data

Results flagged for a closer look

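In 106 groups of 6 values checked, 5 had a highest or lowest rat whose gap to the nearest other exceeded Dixon's critical value of 0.625 of the group's range, where 1 in 20 groups, or 5.3, would be expected by chance. CNC replicate 6 was high for Cd2, at 11.1 CPM against 8.76 CPM for the nearest rat. CNC replicate 2 was low for Icos, at 7.65 CPM against 9.01 CPM. CNC replicate 3 was high for Ncr1, at 11.1 CPM against 10.02 CPM. Air replicate 4 was high for Prf1, at 104.7 CPM against 88.5 CPM. In the log2 ratio of Gzmb to Prf1, CNC replicate 4 was high, at -2.67 against -3.44.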

How the results depend on the processing

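Of the 4 members that fell, 0 did so at a threshold of 0.01 by edgeR (7 had an unadjusted p under 0.05 and 2146 genes passed in all). With the clock covariate 0 members rose and 9 fell, and 882 of all 15019 tested genes passed (554 higher, 328 lower). Without air replicates 4 and 5, 3 members rose and 0 fell, where 1844 of all 15197 tested genes rose and 1748 fell. Leaving out 1 rat at a time, members that rose ran from 1 to 2, members that fell from 2 to 7, and all genes from 3091 to 3722. Cst7 over Nkg7 then ran from 0.55 to 0.68. It lost its call without air replicate 1, 2, 4, 5 or 6 (the difference then at 0.59 to 0.61), although the groups still did not overlap. It was 0.61 without air replicates 4 and 5, where the smallest exact permutation p of 4 against 6 rats (0.00476) becomes 0.0571 when adjusted for 1 ratio, so this ratio could not pass alone. Gzma over Prf1 ran from 0.13 to 0.21, passing without air replicate 3. Some estimates that had not passed turned sign, again without passing. With limma-voom this was Cd28 (0.0012). With the clock covariate they were Cd3e (-0.52), Cd3g (-0.33), Cd2 (-0.45), Cd5 (-0.32), Cd6 (-0.15), Icos (-0.23), Gzmb (-0.57) and Xcl1 (-0.26). Without air replicates 4 and 5 they were Zap70 (0.065), Lat (0.061), Cd28 (0.094), Cd4 (0.043), Bcl11b (0.12), Klrk1 (0.058), Klrd1 (0.10) and Ctsw (0.12). Without 1 rat they were Cd3g (-0.012 to 0.15), Zap70 (-0.092 to 0.045), Lat (-0.075 to 0.054), Cd28 (-0.12 to 0.030), Klrd1 (-0.072 to 0.038), Gzmb (-0.13 to 0.15) and Ctsw (-0.069 to 0.054). The cause was not tested. Scaling moved the median of all genes by at most -0.02 (library size alone), when 43.9% of called genes were higher, against 53.7% with TMM. The pseudocount changed no ratio's call. Tbx21 also fell with upper-quartile scaling, library size alone, DESeq2 and limma-voom. No paired analysis was possible because replicate numbers only name a rat and the labels match no air rat to a CNC rat. The 95% intervals were widest for Xcl1, Ctla4 and Themis, which have few counts, followed by Gzmb.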
